A study of Mus musculus with 4 samples.

Results

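In 549 tiled regions of the mouse forelimb bud, the Polycomb protein RING1B and the histone mark H3K27me3 both passed a high threshold, yet RING1B did so over only a small stretch of the region. A tiled region was a run of array probes on chromosomes 1 to 19 whose starts lay at most 1000 bp apart. Values were means over windows of 3 neighbouring probes, and the highest window of a region is termed its top window. Members had at least 10 RING1B windows, a RING1B top window of at least 2.7 (6.50-fold on the linear scale) and an H3K27me3 top window of at least 7.21-fold, which is the H3K27me3 threshold throughout. Under 20% of their RING1B windows reached 2.7. The members were thus chosen by their measured RING1B and H3K27me3 windows, so RING1B height and breadth are descriptions of the choice and not findings. The 549 members are termed narrow regions here. They came from 24078 autosomal tiled regions, of which 13385 had at least 10 RING1B windows and a value for both antibodies.

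RING1B is the catalytic ubiquitin ligase subunit of Polycomb repressive complex 1 (PRC1), which places ubiquitin on histone H2A. H3K27me3 is set by Polycomb repressive complex 2 (PRC2), whose subunit EED binds the mark and helps it to extend along a locus, while CBX subunits of some PRC1 forms bind the mark as well. In embryonic tissue both complexes occupy CpG-rich promoters of developmental genes and hold them silent in cells that do not use them.

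The study mapped both by chromatin immunoprecipitation on 2-colour tiling arrays (ChIP-chip), with 2 arrays per antibody. Chromatin came from pooled whole forelimb buds of wild-type BDF1 mouse embryos at E10.5, fixed in 1% formaldehyde for 20 min, and the labels record no mutant or treated group. Precipitated and input DNA, amplified over 2 rounds with T7 RNA polymerase, shared each array in different dyes. A whole bud mixes cell types, so a signal in a few cells and a weak signal in many cannot be told apart.

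The arrays numbered 1 and 2 shared 0 probe names and 0 coordinates and were read as the 2 designs of one set. Each region therefore had 1 array per antibody, no replicate error could be estimated, and no test was made. An error of a named region is the SD over the 3 probes of its window and does not cover variation between embryos, precipitations or arrays. The arrays carried 237195 and 237185 probes, with a median spacing of 178 bp and 177 bp. Of these, 83.3% to 85.9% per array were kept as well above background in both dyes. Within narrow regions, 90.5% of probes were kept for RING1B and 94.3% for H3K27me3, with 0 saturated. In regions under both thresholds the corresponding shares were 85.2% and 81.9%.

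All levels are log2 ratios of Cy5 over Cy3, centred on each array's median. This direction opposes the labels, which put the precipitate in Cy3 and the input in Cy5. High values are described as enrichment, which takes Cy5 to be the precipitate. If the labels are right, each sign reverses and the same values stand for depletion. With the sign turned, 57 regions passed the RING1B threshold, 144 passed the H3K27me3 threshold, and 5 met the whole rule. No source used here names the genome build of these probe positions, so regions are named by position and carry no gene name or sequence.

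RING1B passed its threshold in 1408 of the 13385 regions (9.52% on array 1 and 11.6% on array 2) and H3K27me3 in 2915 (21.8%, with 23.2% on array 1 and 20.2% on array 2). Both passed in 1373 (10.3%, with 9.38% and 11.2%), termed shared regions, and narrow regions made up 4.10% of the 13385. They were 42.2% of the shared regions of array 1, 38.0% of those of array 2, and 18.8% of all regions over the H3K27me3 threshold. The other shared regions comprised 452 intermediate ones, with 20% to under 50% of RING1B windows over 2.7, and 372 broad ones with at least 50%. A further 1542 regions passed for H3K27me3 alone. Array 1 held 276 narrow regions (3.96% of 6974) and array 2 held 273 (4.26% of 6411). With normexp background correction of the raw signals, 263 regions met the rule, and only 49 of the 549 were among them.

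The RING1B peak of a narrow region was short and close to the threshold. The RING1B top window had a median of 3.12, with quartiles of 2.91 and 3.47 and a range from 2.7 to 5.30. It lay under 3 in 206 of 549 (37.5%) and reached 4 in 38 (6.92%), against 347 of 372 broad regions (93.3%). The share of RING1B windows over 2.7 had a median of 10% (quartiles 6.06% and 14.3%), which was 1 window in 129 regions, 2 in 124, 3 in 100, 4 in 87 and 5 or more in 109. The windows over 2.7 formed a single uninterrupted run in 444 regions (80.9%), 2 separate runs in 85 and 3 or more in 20. The run that held the top window covered a median of 739 bp (quartiles 524 and 1059 bp, range 261 to 2988 bp), against 1687.5 bp in intermediate and 3857.5 bp in broad regions. Tiled length hardly differed, with medians of 7645, 7661.5 and 7742.5 bp.

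Individual probes bore out these low peaks to a varying degree. The SD over the 3 probes of the RING1B top window had a median of 0.47 (quartiles 0.30 and 0.70). All 3 probes reached 2.7 in 272 narrow regions (49.5%), against 371 of 372 broad ones, and the lowest of the 3 was under 2 in 39 narrow regions and under 1 in 0. The distance of the top window from 2.7 was smaller than its own SD in 283 narrow regions (51.5%), 38 intermediate ones (8.41%) and 1 broad one. For H3K27me3 the distance from its threshold was smaller than its SD in 35 narrow regions (6.38%). Membership thus rested on a RING1B margin within the scatter of neighbouring probes for most narrow regions, and on such an H3K27me3 margin for few.

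Height and breadth went together across shared regions, as the plot of both shows. Both were taken from the same windows and set against the same 2.7. The relation is therefore partly built in and describes the choice. Narrow regions were 206 of 210 shared regions (98.1%) with a top window from 2.7 to under 3, 213 of 292 (72.9%) from 3 to under 3.5, and 92 of 232 (39.7%) from 3.5 to under 4. Their share was 37 of 310 (11.9%) from 4 to under 5 and 1 of 329 (0.304%) at 5 or more. Breadth measured against each region's own top, in place of the fixed 2.7, separated the classes less. Windows within 1 log2 unit (2-fold) of the top were 19.05% of RING1B windows in narrow regions as a median, 24.2% in intermediate and 33.3% in broad ones, and 40.9% in regions over the H3K27me3 threshold alone. By that measure under 20% of windows lay near the top in 291 of 549 narrow regions (53.0%), 130 of 452 intermediate ones (28.8%) and 77 of 372 broad ones (20.7%). The label narrow therefore held for the absolute threshold in every member by the rule, and for the shape of the peak in 53.0% of them.

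**Figure D1:**
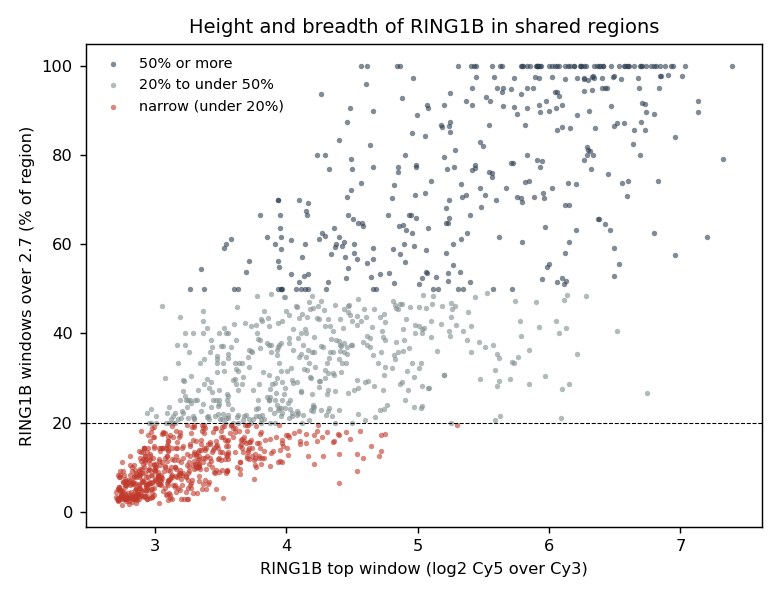
Height of the RING1B top window (x axis, log2 Cy5 over Cy3) against the share of RING1B windows over 2.7 (y axis, % of the region), with 1 point per shared region of both arrays and the 20% limit dashed. Narrow regions run from 2.7 to 5.30, with 419 of 549 (76.3%) under 3.5, and broad regions lie to the upper right.

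Members at the edges of the rule had near neighbours outside it. The lowest RING1B top windows inside were 2.7 in the regions starting at 173935405 on chromosome 2 and 71973803 on chromosome 5, and the highest outside, which also rounds to 2.7, was at 60545032 on chromosome 16. For H3K27me3 the lowest value inside was 2.88 ± 0.48 in chr6:52118513-52120810 and the highest outside 2.81 at 31728046 on chromosome 19. The largest share of RING1B windows inside was 19.4%, as in chr12:111931463-111939821 and chr13:8196783-8204918 with 7 of 36 windows, and the smallest outside was 20.0%, as in chr5:125148853-125156702 with 7 of 35. The members with fewest windows had 11, and a region at 73684460 on chromosome 5 was outside with 9. All of these are values that the rule itself used.

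RING1B was lower already beside its top window, which is the highest window of the region by definition. As medians over narrow regions, it was 3.12 up to 250 bp from the centre of the top window, 2.20 from 250 to 500 bp, 1.66 from 750 to 1000 bp, 1.06 from 1500 to 2000 bp and 0.09 from 3000 to 4000 bp. The last of these, measured in 489 regions, had quartiles of -0.39 and 0.65 and was therefore at the array's median level. Broad regions still had 3.26 at 3000 to 4000 bp. In the windows of narrow regions that did not reach 2.7, the median RING1B level was 0.90 (quartiles 0.44 and 1.33), against 1.16 in intermediate regions and 0.47 in regions over the H3K27me3 threshold alone. That level was above 0 in 518 of 549 narrow regions (94.4%) and at least 1 in 243 (44.3%). The lowest RING1B window was below 0 in 456 narrow regions (83.1%), so most of them contained the whole range from background to peak. It was below 0 also in 319 intermediate regions (70.6%) and in 55 broad ones (14.8%). In regions over the H3K27me3 threshold alone it was so in 1405 (91.1%).

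H3K27me3 also declined with distance, from a higher level. Around the same RING1B top window its median was 4.41 up to 250 bp, 3.44 from 250 to 500 bp, 3.00 from 750 to 1000 bp, 2.73 from 1500 to 2000 bp and 1.62 from 3000 to 4000 bp. Between the innermost and the outermost of these distances, the median of H3K27me3 went from 4.41 to 1.62 and that of RING1B from 3.12 to 0.09. H3K27me3 at 1500 to 2000 bp was thus close to its threshold, whereas RING1B at that distance was well under 2.7. The rule limited the RING1B windows over 2.7 and set no such limit for H3K27me3, so this contrast follows partly from the choice. The antibodies were also centred separately, each on its own arrays. The lowest H3K27me3 window was below 0 in 211 narrow regions (38.4%).

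**Figure D2:**
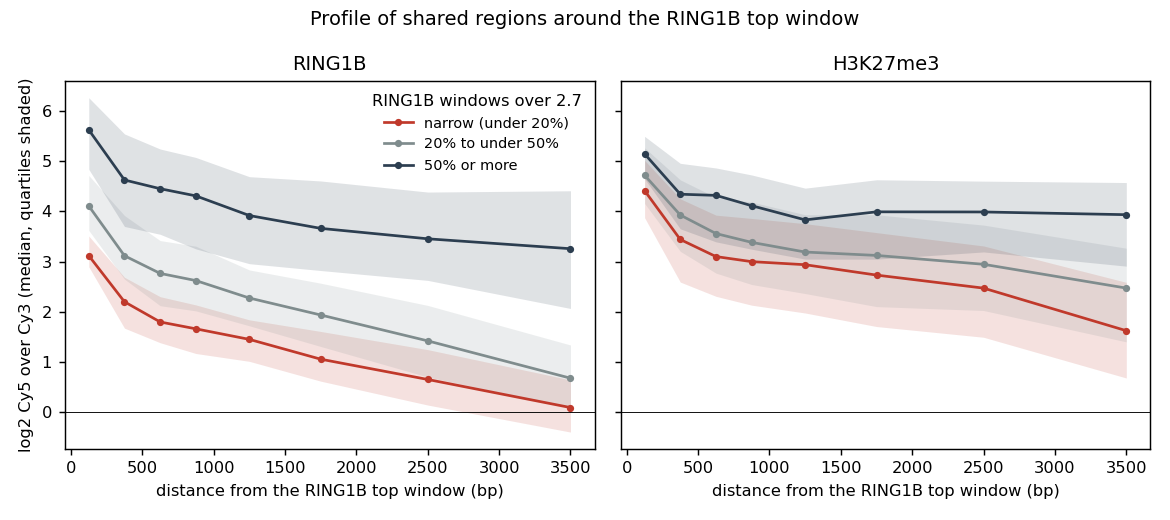
Median level (y axis, log2 Cy5 over Cy3, quartiles shaded) of RING1B (left) and H3K27me3 (right) by distance from the centre of the RING1B top window (x axis, bp) in narrow, intermediate and broad shared regions. In narrow regions RING1B goes from 3.12 to 0.09 by 3000 to 4000 bp, and H3K27me3 from 4.41 to 1.62 over the same distances.

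The H3K27me3 peak of most narrow regions was well over its threshold, less so after loess, where the median top of the regions that met the rule was 3.40. Its top window had a median of 4.64, with quartiles of 4.12 and 5.13 and a range from 2.88 to 6.62. Intermediate regions had 4.88, broad regions 5.30 and regions over the H3K27me3 threshold alone 3.95. By array the narrow regions had medians of 5.03 on array 1 and 4.34 on array 2, a gap as large as that between narrow and broad regions pooled. Within each array the order of the classes was kept, with 5.28 and 4.62 in intermediate regions and 5.69 and 5.14 in broad ones. The H3K27me3 ratios of the whole arrays also had unequal spread, with SDs of 1.91 on array 1 and 1.68 on array 2.

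With the processing used here, H3K27me3 covered more of a narrow region than RING1B did in nearly all of them. The share of H3K27me3 windows over the threshold had a median of 43.2% (quartiles 25.6% and 65%, range 2.56% to 100%). The run that held its top covered 1953 bp (quartiles 1396 and 2854 bp). With loess the median share was only 11.4% over the regions that met the rule, and was not counted against RING1B. The H3K27me3 share was above the RING1B share in 514 of 549 narrow regions (93.6%), below it in 31 and equal to it in 4. In intermediate regions it was above in 380 (84.1%), below in 65 and equal in 7 of 452. In broad regions it was above in 189, below in 141 and equal in 42 of 372. The RING1B run lay wholly inside the H3K27me3 run that held the H3K27me3 top in 424 narrow regions (77.2%). This was so in 282 intermediate regions (62.4%) and in 171 broad ones (46.0%). RING1B breadth in narrow regions was limited to under 20% by the rule, so these counts describe the members and are no independent comparison of the classes. The H3K27me3 run reached an end of the tiled region in 288 narrow regions (52.5%), where its full width was not measured, and the RING1B run did so in 54 (9.84%).

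H3K27me3 breadth, which the rule did not use, still differed widely among narrow regions. At least 80% of H3K27me3 windows were over the threshold in 58 (10.6%), at least 50% in 228 (41.5%), under 20% in 87 (15.8%) and all of them in 11. The medians were 55.4% on array 1 and 32.0% on array 2, and on the same arrays 64.5% and 48.5% in intermediate regions and 94.9% and 77.2% in broad ones. Among the shared regions of each array the narrow ones were thus lowest and the broad ones highest. This share moved by over 1.5 times with the processing: over the regions that met the rule, its median was 23.5% with normexp and 11.4% with loess.

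**Figure D3:**
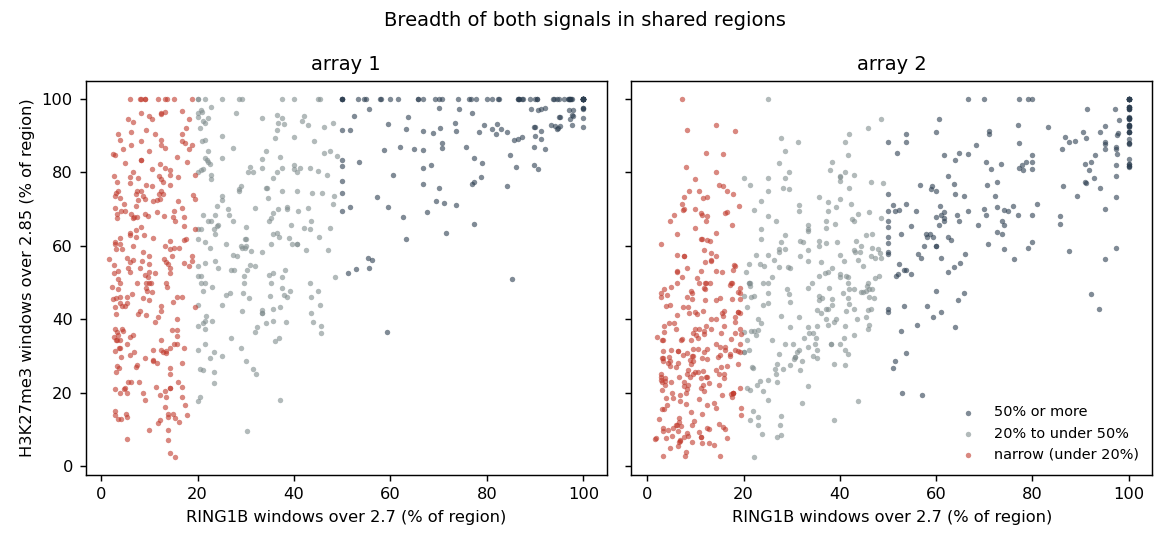
Share of RING1B windows over 2.7 (x axis, % of the region) against the share of H3K27me3 windows over the 7.21-fold threshold (y axis, % of the region), with 1 point per shared region and 1 panel per array. Narrow regions span nearly the whole H3K27me3 axis, with medians of 55.4% on array 1 and 32.0% on array 2, and broad regions lie mostly at the top.

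At a like RING1B height, narrow regions had the lower share of H3K27me3 windows over the threshold. Their H3K27me3 run was shorter than in the other classes only at some heights on each array. With RING1B top windows from 3.5 to under 4, the H3K27me3 share was 37.5% in 92 narrow regions, 54.1% in 118 intermediate and 79.1% in 22 broad ones. On array 1 these medians were 44.2%, 64.5% and 100%, and on array 2 they were 36.3%, 49.2% and 71.4%. H3K27me3 top windows were closer together, at 4.62, 4.79 and 4.99. Tiled length differed for the broad ones, whose median was 4907.5 bp against 7779 bp in narrow regions and 7645.5 bp in intermediate ones. A share is larger in a shorter region for a peak of the same width, and the H3K27me3 runs were 1866, 2201.5 and 2539.5 bp over both arrays. On array 1 the runs were alike, at 2563.5, 2485 and 2539.5 bp, the last in 8 regions. On array 2 they were 1666.5, 1914 and 2654 bp, the last in 14. With tops from 4 to under 5, the runs were 2703, 2988 and 4250 bp on array 1, and 1409, 2031.5 and 2090 bp on array 2. From 3 to under 3.5, narrow and intermediate runs were 2573 and 3209 bp on array 1, and 1745 and 1714 bp on array 2. The part of length in the difference of shares was not tested.

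Among narrow regions the strengths of both signals were weakly related. The RING1B and H3K27me3 top windows had a Pearson r of 0.10 and a Spearman rho of 0.07 across the 549 regions, and the shares of windows had 0.09 and 0.09. Run widths had r = 0.12 and rho = 0.06. On array 1 alone these pairs were 0.07 and 0.06 for the tops, 0.07 and 0.07 for the shares, and 0.14 and 0.04 for the widths. On array 2 they were higher, at 0.23 and 0.20, 0.21 and 0.22, and 0.26 and 0.17. These regions share arrays, dyes and the input DNA of a tissue, and the range of RING1B was cut by the rule, so the coefficients are descriptions. The rule also held the RING1B height of narrow regions to a small range in every class of H3K27me3 top windows. From the lowest class of H3K27me3 top windows (under 3.5) to the highest (5.5 or more), the median RING1B top window of narrow regions stayed between 3.06 and 3.19, while the median H3K27me3 share went from 10.3% to 70.3%. Narrow regions were 54 of the 539 regions in the lowest class, 127 of the 507 from 5 to under 5.5, and 53 of the 288 in the highest (18.4%). Over all these regions RING1B did vary with the H3K27me3 top. Broad regions were 2 in the lowest class and 130 in the highest, and regions over the H3K27me3 threshold alone were 471 and 26.

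The level of RING1B outside its peak varied with H3K27me3 breadth on both arrays. In the 87 narrow regions with under 20% of H3K27me3 windows over the threshold, the RING1B level in windows under 2.7 had a median of 0.51 (quartiles 0.12 and 0.95). It was 0.67 in the 234 regions with 20% to under 50%, 1.15 in the 170 with 50% to under 80%, and 1.59 (quartiles 1.30 and 1.83) in the 58 with 80% or more. The RING1B top window over the same classes was 3.24, 3.13, 3.10 and 3.05. Where H3K27me3 was broad, RING1B was thus above background over most of the region with a peak that stood out less, and where H3K27me3 was short, RING1B was near background outside its peak. Array 1 gave 0.24, 0.47, 1.12 and 1.54, and array 2 gave 0.56, 0.76, 1.31 and 1.74, although the last value rests on 8 regions. Over the same classes the median distance between tops was 68, 58, 168 and 159.5 bp on array 1. On array 2 it was 142, 173, 322 and 664 bp, the last again from 8 regions. Across narrow regions the outside level of RING1B and the H3K27me3 share had r = 0.53 and rho = 0.52, with 0.58 and 0.60 on array 1 and 0.53 and 0.50 on array 2. Regions with 80% or more were also shorter, with a median length of 5675 bp against 7879 bp in those under 20%, and the part of length was not tested.

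**Figure D4:**
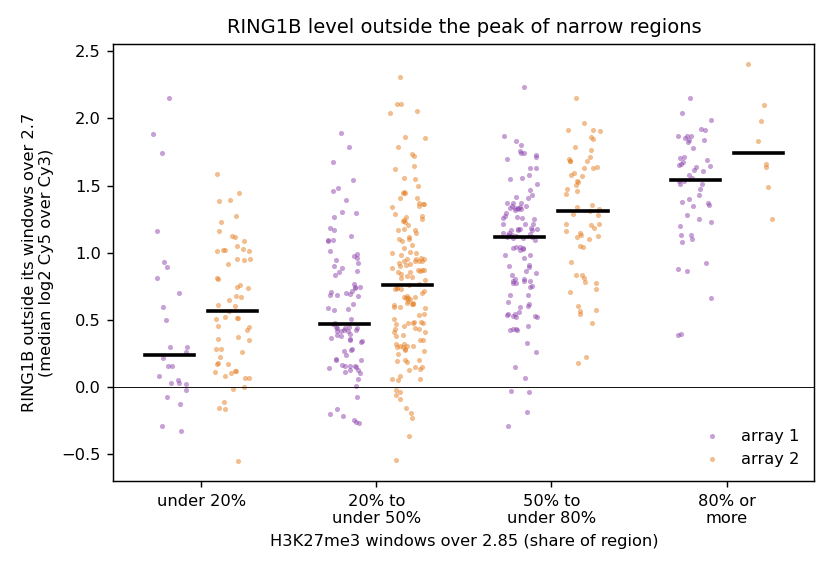
RING1B level outside its windows over 2.7 (y axis, median log2 Cy5 over Cy3 of the region) in narrow regions sorted by the share of H3K27me3 windows over the 7.21-fold threshold (x axis), with points for regions, bars for medians and colours for arrays. Medians go from 0.24 to 1.54 on array 1 and from 0.56 to 1.74 on array 2, with wide overlap between neighbouring classes.

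The RING1B peak lay on or near the H3K27me3 peak in most narrow regions. H3K27me3 in the RING1B top window had a median of 4.44 (quartiles 3.90 and 5.001) and reached the H3K27me3 threshold in 531 of 549 (96.7%). It was within 1 log2 unit of the region's H3K27me3 top in 530 (96.5%). Other shared regions were alike, with 99.1% and 97.1% in intermediate and 99.7% and 97.3% in broad ones. Regions over the H3K27me3 threshold alone had 68.5% and 72.8%. Both antibodies had the same top window in 217 regions (39.5%), close to the 180 of 452 intermediate ones (39.8%), and against 118 of 372 broad ones (31.7%). The centres were a median of 156 bp apart, at most 500 bp apart in 401 regions (73.0%) and over 1000 bp apart in 97 (17.7%). In intermediate regions the median distance was 173 bp, and 93 (20.6%) had tops over 1000 bp apart. In broad regions these values were 404.5 bp and 145 (39.0%). Over the regions that met the rule, the median distance was 327 bp with loess and 0 bp with normexp.

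H3K27me3 was the higher of both ratios at the RING1B peak of 494 narrow regions (90.0%). RING1B minus H3K27me3 in that window had a median of -1.24 (quartiles -1.78 and -0.52), against -0.47 in intermediate and 0.54 in broad regions. By array the narrow regions had -1.65 and -0.79. H3K27me3 was higher by at least 1 in 323 narrow regions (58.8%) and RING1B was higher by at least 1 in 4, against 105 broad regions (28.2%). Each antibody had arrays of its own, centred separately, so the difference compares positions on 2 scales and is no ratio of protein to mark. RING1B height in the classes follows from the rule, and the difference carries that choice. With loess the medians of the regions that met the rule were level, at 3.05 for the RING1B top and 3.02 for H3K27me3 in the same window.

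Both dyes were also read on their own. The RING1B top window is the highest ratio of Cy5 over Cy3 in the region by the rule, so high Cy5 and low Cy3 on the RING1B arrays were selected for and are given as a description. On the RING1B arrays the Cy5 signal of narrow regions was higher in the top window than outside the run by a median of 2.07 on the log2 scale (quartiles 1.38 and 2.75), and it was higher in 545 of 549. The Cy3 signal was lower there, with a median difference of -0.40 (quartiles -0.80 and 0.06), and was higher in 157. In the 294 broad regions with windows outside the run, the Cy5 difference was 2.57 and the Cy3 difference 0.07, and in intermediate regions they were 2.82 and -0.22. On the H3K27me3 arrays the same RING1B top window of narrow regions had a Cy5 difference of 1.98, higher in 531 of 549, and a Cy3 difference of -0.13. Those arrays did not place the window, but the rule required a high H3K27me3 top in the region. These differences are therefore a description too. The RING1B Cy3 difference was -0.44 on array 1 and -0.37 on array 2.

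The highest RING1B top window among narrow regions, 5.30 ± 0.31, lay in chr16:23901499-23909377. This run of 1559 bp began at the end of the tiled region, so its outer side was not measured. From -928 to 227 bp around the centre, RING1B probes read 4.25, 4.34, 5.09, 4.58, 5.27, 5.63 and 5.01, and the next values at 422 and 578 bp were 2.35 and 1.69. The H3K27me3 probes at the same positions read 3.91, 3.61, 4.09, 4.19, 4.06, 4.13 and 3.58, followed by 0.78 and 0.55. Both signals thus dropped within about the spacing of neighbouring probes. Farther on, single RING1B probes at 1270 and 2412 bp read 3.19 and 3.41, while H3K27me3 stayed under its threshold, and 13.9% of H3K27me3 windows passed. The region had a share of 19.4% of RING1B windows over 2.7, just inside the limit.

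Region ends recurred among the highest peaks. Of the 10 highest RING1B members, the run met a region end in 6, and of the 38 members with a top window of at least 4 it did so in 15. This compares with 54 of all 549. Among intermediate regions with a top window of at least 4 the run met an end in 109 of 254, and among broad ones in 264 of 347. For narrow regions whose run met an end, the width over 2.7 is a lower limit. Without the 54, 495 narrow regions remained.

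Several other high RING1B peaks lay in windows where H3K27me3 was higher still, although RING1B was the higher in 4 of the 10 highest members. In chr4:133515520-133523164 RING1B reached 4.72 ± 0.16 with H3K27me3 at 5.42 ± 0.07 in the same window, and in chr1:166292424-166300510 it reached 4.72 ± 0.28 with 5.45 ± 0.07. In chr2:38534252-38541815 the values were 4.70 ± 0.47 and 5.56 ± 0.16. In the former pair the 3 probes of each antibody were close together. The runs on chromosomes 4 and 2 met a region end. In chr15:91398755-91405993 RING1B was 4.64 ± 0.43 while the H3K27me3 probes scattered, at 3.79 ± 1.73. In chr15:99413351-99421441 it was the RING1B probes that scattered, at 4.58 ± 1.20, with H3K27me3 at 5.03 ± 0.37. The longest narrow region, chr1:74816308-74839238, had a RING1B top of 4.75 ± 0.57, and the tops lay 2417 bp apart. Its H3K27me3 run covered 12307 bp, with 88.1% of H3K27me3 windows over the threshold. RING1B passed its own threshold there in 18 of 103 windows (17.5%), in 5 separate runs. The run with the RING1B top covered 2075 bp and met a region end. No narrow region had more RING1B windows over the threshold, so this one was narrow by its share and not by its number of windows.

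The regions with the highest H3K27me3 had modest RING1B. In chr4:41909432-41922964 H3K27me3 reached 6.62 ± 0.79, and 82.5% of its windows passed. RING1B topped at 3.46 ± 0.74 in the same region, 4334 bp from the H3K27me3 top, with 5% of windows over 2.7. Of the 3 probes in the H3K27me3 top window, only 1 was kept for RING1B and read 3.49, so this distance rests on probes left out. The 3 probes of its top window read 2.64, 3.66 and 4.07, and RING1B was 0.86 at 756 bp from the centre and -0.03 at -1972 bp, where H3K27me3 was 4.28. Single RING1B probes elsewhere also passed 2.7, such as one of 3.98 at 5219 bp. In chr2:181062166-181070146 H3K27me3 was 6.16 ± 0.25 and RING1B 3.11 ± 0.90, and in chr8:9768490-9775427 H3K27me3 was 6.10 ± 0.08. In chr7:57375455-57383398 both tops fell in the same window, at 6.22 ± 0.27 for H3K27me3 and 3.60 ± 0.15 for RING1B.

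**Figure D5:**
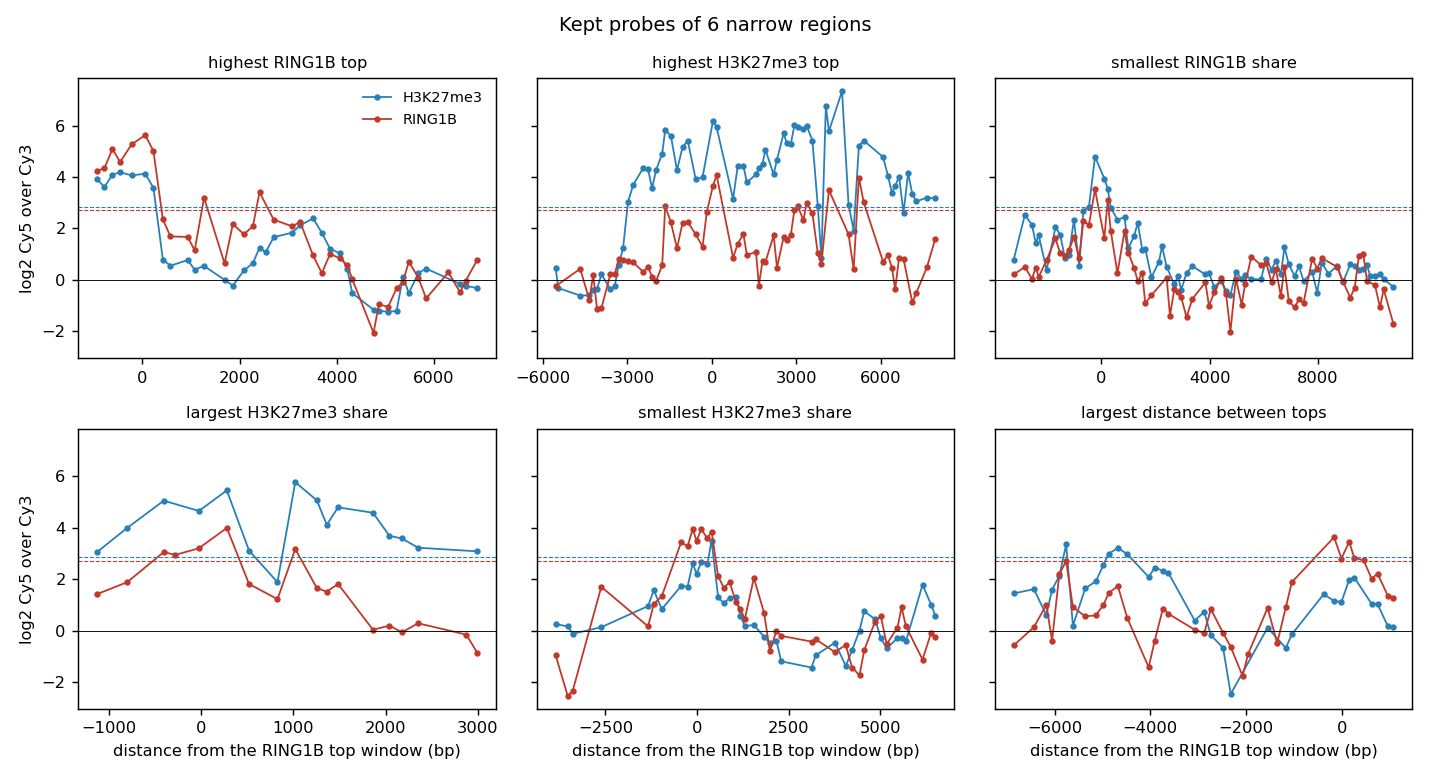
Single kept probes (y axis, log2 Cy5 over Cy3) by distance from the centre of the RING1B top window (x axis, bp) in 6 narrow regions, each the extreme of the measure in its panel title, with dashed lines at the RING1B (red) and H3K27me3 (blue) thresholds. In the region with the highest RING1B, 5.30 ± 0.31, both signals drop beside the peak, and in that with the highest H3K27me3, 6.62 ± 0.79, RING1B is near 0 over parts of the marked stretch.

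Some regions were marked by H3K27me3 from end to end. In chr4:124483427-124491255 every H3K27me3 window passed its threshold over 7829 bp, with a top of 5.13 ± 0.30, while RING1B topped at 3.35 ± 0.38 and stayed over 2.7 for 869 bp. In chr5:37153675-37159299 the H3K27me3 top of 5.91 ± 0.26 coincided with a RING1B top of 3.16 ± 0.14, and 8% of RING1B windows passed. In chr4:129809281-129813458, of 4178 bp, RING1B was 3.38 ± 0.55 at its top and between -0.86 and 0.28 on the probes from 1864 bp onward, where H3K27me3 read 3.08 to 4.58. RING1B was thus at background beside a mark that was still over its threshold.

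In 31 regions the H3K27me3 share was below the RING1B share, and some of them had a clear RING1B peak beside weak H3K27me3. In chr8:63870446-63880873 RING1B topped at 3.79 ± 0.26, and 7 probes from -432 to 399 bp around the centre read 3.43, 3.28, 3.94, 3.49, 3.94, 3.58 and 3.85. H3K27me3 on these probes read 1.73, 1.71, 2.61, 2.20, 2.66, 2.58 and 3.5, and its top of 2.91 ± 0.51 was barely inside the rule, with 2.56% of windows over the threshold. RING1B exceeded H3K27me3 there by 1.30 in the RING1B top window. The region chr11:109286780-109295143 was similar, with RING1B at 3.27 ± 0.36 and H3K27me3 at 2.92 ± 0.42 in one and the same window. In chr12:37613479-37621359 RING1B reached 4.24 ± 0.27 over a run of 2158 bp, and H3K27me3 was 3.23 ± 0.29 in the same window.

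Distant tops did not always mean separate signals. The largest distance between tops, 4674 bp, was in chr11:102927140-102935131, where RING1B was 3.29 ± 0.44 and H3K27me3 in that window 1.41 ± 0.48. The H3K27me3 top of that region was 3.05 ± 0.13, and the difference of 1.88 was the largest in favour of RING1B among narrow regions. In chr12:79823320-79831300 the tops were 4603 bp apart. RING1B topped at 2.96 ± 0.63, where H3K27me3 read 2.35 ± 1.02 against its own top of 4.11 ± 0.45. In the other 4 of the 6 most distant pairs, H3K27me3 in the RING1B window was over its threshold, at 4.38, 6.05, 4.88 and 3.51. In all, 38 narrow regions had tops over 2000 bp apart.

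At the weak end of RING1B, membership rested on single windows. In chr18:61159223-61173293 1 of 65 windows passed (1.54%), with a top of 2.75 ± 1.00 from probes of 3.52, 1.62 and 3.09, and H3K27me3 there was 4.09 ± 0.64. In chr7:45229879-45243943 1 of 60 windows passed, but its probes were close together at 2.80 ± 0.19, and 56.5% of H3K27me3 windows passed. The regions with the largest excess of H3K27me3 in the RING1B window were of the same kind. In chr4:139516366-139524337 RING1B was 2.77 ± 1.06 and H3K27me3 5.87 ± 0.77, and in chr2:25106740-25114471 they were 2.72 ± 0.60 and 5.80 ± 0.13. In chr4:126669430-126673989 they were 2.75 ± 0.18 and 5.74 ± 0.09, so here the RING1B value was low but even over its probes. Without the 129 regions of 1 window, 420 narrow regions remained.

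Most narrow regions had no other shared region nearby, as was the case for regions under both thresholds. A broad or intermediate region lay within 20 kb of 20 narrow regions (3.64%), against 1.13% of the regions under both thresholds. A broad one lay that near 7 narrow regions (1.28%), while 33 of 372 broad regions (8.87%) had another broad region within this distance. Within 100 kb, 98 narrow regions (17.9%) had any other shared region, and regions under both thresholds had one nearly as often, at 15.9%, and intermediate regions at 15.5%. A region over the H3K27me3 threshold lay within 100 kb of 35.3% of narrow regions and of 33.9% of the regions under both thresholds. The 20 with a broad or intermediate neighbour had a median RING1B top of 2.93 and an outside level of 1.11, against 3.13 and 0.89 in the other 529, differences that are small beside the quartiles. Neighbouring members at most 100 kb apart formed 24 chains. The largest held 4 members each, at chr10:126440169-126588958 with RING1B tops of 3.64 to 3.97, at chr11:70043720-70281596 with 2.92 to 3.39, and at chr7:18334347-18566651 with 3.05 to 3.28. In chr4:150970209-151005167, 3 members lay within 35.0 kb.

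Every autosome held narrow regions. Their share of the regions with at least 10 RING1B windows went from 2.80% on chromosome 7 (30 of 1073) to 5.60% on chromosome 18 (20 of 357), and chromosome 11 held most, with 50 of 1135. Among shared regions they made up from 26.7% on chromosome 13 to 49.2% on chromosome 8. Within the tiled region, the RING1B top lay in the middle of 3 equal parts in 160 narrow regions (29.1%) and within 1000 bp of an end in 122 (22.2%). The other classes lay on both sides of these shares. They had 25.9% and 25.4% in intermediate regions, 33.1% and 30.6% in broad ones, and 35.7% and 16.0% over the H3K27me3 threshold alone.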

How the data were processed

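Measurements came from 4 2-colour Agilent arrays, 2 for RING1B and 2 for H3K27me3. The authors' scanner files were made with Feature Extraction 10.1.1.1, per the file headers. The processed signals in them are background-subtracted, spatially detrended and linearly dye-normalized intensity values, not logarithms, and the log ratios deposited beside them are log10 of Cy5 over Cy3. The authors' value tables hold log2 ratios without centring, in which 99.7% to 99.9% of probes per array came within 0.001 of the scanner ratios, with medians of -0.16 and 0.0179 for H3K27me3 and -0.11 and -0.122 for RING1B. Which dye held the precipitate remains unknown where labels and data differ, and no source used here names the genome build.

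Here log2 ratios of the processed signals were centred on the median of kept probes, with no loess. Control spots were left out, and a probe was kept where both dyes were well above background. Precision is limited by the single array per region and antibody, so only medians, quartiles and counts are given. The rule was tested on simulated data with peaks well over the thresholds, which does not address regions close to them. The members, classes and lists were chosen with earlier results of these data known. Named regions were those ranked highest or lowest within the members: 10 by RING1B top, 6 each by H3K27me3 top, RING1B share, H3K27me3 share (both ends) and distance, 4 at each end of the difference, and 3 on each side of every threshold. The values of chains, neighbours and chromosomes fell outside that rule. Alternatives covered normexp (offset 50), loess, the value table, probe filters, window size, thresholds, the region gap and centring. Normexp was run on median signals with local median backgrounds, where mean signals had been planned. Gene lists and base composition were not analysed here, as no annotation of the files' build was used. Tools were R 4.3.3 with limma 3.58.1 and Python 3.11.15 with pandas 2.3.3, numpy 2.4.6, scipy 1.17.1 and matplotlib 3.10.9.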

Additional observations from a re-analysis of the deposited data

Results flagged for a closer look

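Regions on chromosome X lay outside the rule, which covered chromosomes 1 to 19, and all of them were on array 2. Of 477 regions with at least 10 RING1B windows there, 31 passed both thresholds and 8 met the rest of the rule, which is 1.68% of the regions and 25.8% of the shared ones. The autosomes of array 2 had 273 of 6411, which is 4.26% of the regions and 38.0% of the shared ones. The 8 regions had a median RING1B top window of 3.17 and an H3K27me3 share of 36.1%, against 3.15 and 32.0% in the 273, and an H3K27me3 top window of 3.92 against 4.34. The difference was not tested, and the labels used here do not give the sex of the pooled embryos.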

How the results depend on the processing

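No paired analysis was possible because arrays 1 and 2 measured different regions and no result came from a test. For the count of narrow regions and 6 medians over them, 127 values moved by less than a tolerance and 14 moved more. Tolerances were the spread over the 3 probes of a window, the probe spacing, the 95% Wilson interval of a share, or 1.5 times in a count. The spacing of 174 bp exceeded the median distance of 156 bp, so even a fall to 0 bp stayed within it. The interval, 28.2% to 60.7%, came from the median window number of a region and is no error of a median over regions. The value table holds nearly the same ratios, so its values could hardly move. Normexp gave 263 regions, with an H3K27me3 top of 3.97, an H3K27me3 share of 23.5% and H3K27me3 in the RING1B top window of 3.86. Of the 549, 49 remained, while 327 passed for H3K27me3 only, 25 for RING1B only and 148 for neither. Loess gave an H3K27me3 top of 3.40, a share of 11.4% and 3.02 in the RING1B top window, with 405 regions, 203 of them among the 549. The distance between tops, a median of 156 bp, was 327 bp with loess, 0 bp with normexp and 64 bp with breadth taken from the own top. Windows of 5 probes gave a run of 1255 bp. Leaving out each array pair gave counts of 273 to 276 and H3K27me3 tops of 4.34 to 5.03. Added after seeing the data, the turned sign gave 5 regions, and breadth within 2-fold of the own top gave 498 regions, 291 of them among the 549, with a RING1B top of 3.93 and a run of 1265.5 bp. Without the filter on dim probes 643 regions met the rule, including 440 of the 549. The cause of the moves was not tested. With 1 array per region and antibody, no value here carries a biological error, and RING1B margins over 2.7 were within probe scatter in 283 members.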
